A study of Mus musculus with 4 samples.

Results

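Solute carriers are membrane proteins that move amino acids, sugars, ions, metals, nucleotides and lipids across the cell surface and the membranes of organelles. The carriers described here are all genes in the tables of called N6-methyladenosine (m6A) sites whose symbol starts with Slc or Slco followed by a digit, without Slc1a2, Slc1a3 and Slc4a4. The rule found 123 genes of 5526 named genes, with 315 listed sites of 11986 in named genes. A total of 4 of the 123 match by symbol but encode no carrier: Slc9a3r1 and Slc4a1ap are adaptor proteins, Slc7a6os is a neighbour of Slc7a6 and Slc2a4rg-ps is a pseudogene. They are counted with the rest unless stated.

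The libraries came from mouse cortex and were labelled astrocyte (2 libraries) or microglia (2 libraries). All mice carried APOBEC1-YTH, a cytidine deaminase fused to an m6A-binding domain. Treatment started at an age of 10 weeks with tamoxifen, 20 mg/kg every 24 hours over 5 days, and cells were collected 7 days after the last dose. Astrocytes were sorted by the surface antigen ACSA2 and microglia by CD11b, and no library without the fusion or without tamoxifen was analysed here. The labels do not give the promoter that drives the fusion or how many mice went into a library. They also do not say whether replicates came from separate mice, so the spread between libraries may be technical. In GLORI, the assay used, unmethylated adenosine is deaminated and read as G, and the share of reads that still carry A at a position is its level, given here in percent.

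m6A is written on messenger RNA mainly within a DRACH sequence, where the methylated A is followed by C. The mark is bound by YTH proteins, which affect the decay, splicing and translation of the transcript. Glial carriers set the extracellular levels of neurotransmitters, ions and fuels: astrocytes take up GABA, glycine and potassium with its counter-ions, and microglia carry importers and exporters typical of macrophages. A given carrier can therefore serve as a sign of the cell type as well as of a transport task.

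The sequence deposited with each site is a 3-mer with the methylated A in the middle, shown here because it is the only sequence the sites carry. All 277 distinct carrier positions read either of the following 3-mers.

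Most carrier positions, 188: GAC

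The other carrier positions, 89: AAC

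GAC made up 69.8% of carrier sites in astrocyte 1 and 61.7% in astrocyte 2, with 47.8% in microglia 1 and 67.2% in microglia 2. For all other named genes these shares were 67.6%, 65.1%, 57.0% and 69.4%, in the same order of libraries. Lower-case letters, which mark soft-masked repeat sequence in genome files by convention, occurred at 9 of the 277 carrier positions. Whether a site lies in an exon, an intron or a UTR was not determined.

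The library names used here are the labels, and 2 of them ran against the marker genes. Of 30 markers of astrocytes, 25 had a listed site in astrocyte 1, 1 in astrocyte 2, 0 in microglia 1 and, against its label, 22 in microglia 2. Of 32 markers of microglia, the numbers were 2, 26, 21 and 1 in that order, so that the library labelled astrocyte 2 also ran against its label. Gfap, Sox9, Trem2 and Tyrobp, which are defining markers of these cells, had no site in any library. Listed sites in named genes ranged from 1066 in microglia 1 to 4790 in astrocyte 1. Read depth behind each level is unknown. A base that a library does not list may lack the mark, fall under the caller's limits or have had too few reads, which cannot be told apart. A difference in sites between libraries also cannot separate fewer cells of a type from less RNA per cell.

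The 4 libraries listed very different numbers of carriers. Astrocyte 1 listed 126 sites in 75 carriers, astrocyte 2 listed 47 in 31, microglia 1 listed 23 in 19, and microglia 2 listed 119 in 76. As a share of all sites in named genes, carriers made up 2.63% in astrocyte 1 (exact 95% binomial interval 2.20% to 3.12%) and 2.002% in astrocyte 2 (1.47% to 2.65%). The share was 2.16% in microglia 1 (1.37% to 3.22%) and 3.15% in microglia 2 (2.61% to 3.75%). These intervals cover the counting of sites only. By label the share averaged 2.32% ± 0.44 in astrocyte libraries and 2.65% ± 0.70 in microglia libraries (SD, n = 2 each), which differ by -0.34 points (p = 0.667, two-sided, exact permutation test). The smallest p that 2 libraries against 2 allow is 0.333, and the difference was 0.16 points without microglia 2 and 0.47 points in the replicate 1 libraries alone. The shares by label therefore differed by less than the spread between libraries of one label. With 2 labels running against the marker genes, this comparison does not bear on the cell types.

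In the whole mouse gene set, 122 of 386 protein-coding symbols under the rule had a site in at least 1 library, which is 31.6%, against 21.96% of all 21900 protein-coding symbols. Carriers were also listed in more than 1 library more often than named genes in general. Of the 123 carriers, 60 were in 1 library, 50 in 2, 11 in 3 and 2 in all 4. This puts 40.7% of carriers in exactly 2 libraries, against 27.9% of all named genes. The pairing behind this figure was mostly astrocyte 1 with microglia 2, which held 35 carriers that neither other library listed, 28.5% of carriers against 15.7% of named genes. None of these differences was tested, and the genes compared were not matched for expression or transcript length.

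Sites also stacked up within single carriers. A total of 54 carriers had 1 distinct position, 31 had 2, and 38 had 3 or more. Carriers with 3 or more positions made up 30.9% of carriers and 20.4% of all named genes. Within a library, a carrier had 1.68 sites on average in astrocyte 1 and 1.52 in astrocyte 2, with 1.21 in microglia 1 and 1.57 in microglia 2. Other named genes had 1.52, 1.37, 1.13 and 1.45 in these libraries. The carrier value was higher in 4 of 4 libraries.

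**Figure D1:**
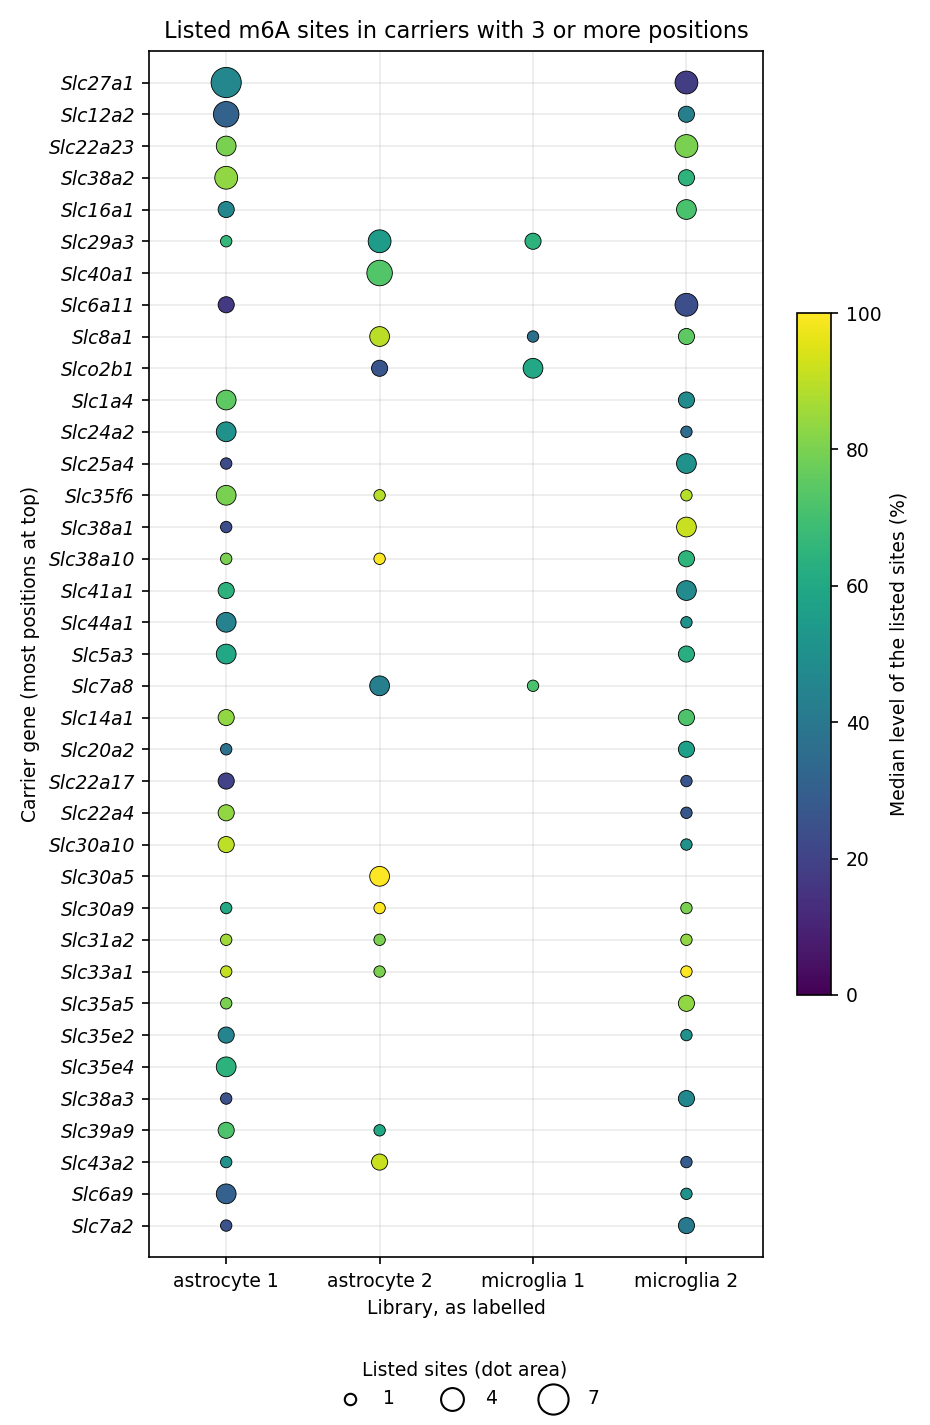
Listed sites in 37 of the 38 carriers with 3 or more distinct positions (rows) in each library as labelled (columns). Dot area is the number of sites listed in that library and colour is their median level in percent. Slc27a1 stands at the top with sites in astrocyte 1 and microglia 2, and Slc40a1 has all 5 of its sites in astrocyte 2.

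Levels in carriers covered almost the whole range that the tables list. In astrocyte 1 carrier sites ran from 10.5% to 100% with a median of 59.2%, and in astrocyte 2 from 15.4% to 100% with a median of 75%. In microglia 1 they ran from 28.6% to 100% with a median of 100%, and in microglia 2 from 12% to 100% with a median of 58.8%. The medians of other named genes were 66.7%, 80%, 100% and 58.9% in the same libraries, so the difference, carriers minus other genes, was -7.50, -5, 0 and -0.06 points. The mean of these differences was -3.14 ± 3.73 points (SD, n = 4 libraries; exact two-sided sign-flip permutation p = 0.25, the smallest that these values allow, since 1 difference is 0). Over sites below 100% alone, the mean difference was -0.11 points. Sites at exactly 100% made up 16.7% of carrier sites in astrocyte 1 and 31.9% in astrocyte 2, with 65.2% in microglia 1 and 11.8% in microglia 2. The order of the libraries was the same in other named genes, at 27.6%, 38.0%, 60.2% and 15.4%.

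**Figure D2:**
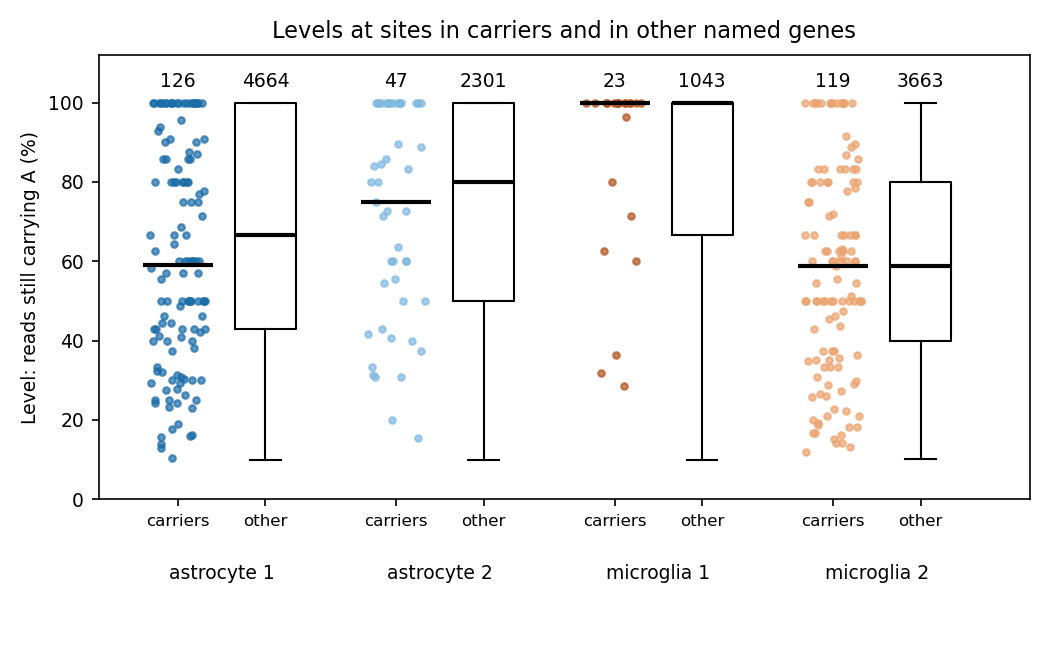
Level of every carrier site (points, with the median as a bar) beside all other named genes (box for quartiles, whiskers for the full range) in each library, with the number of sites above. Both kinds of gene have their highest median, 100%, in microglia 1.

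Carriers of amino acids and neurotransmitters were the largest substrate group, with 28 genes and 72 positions. Sites were found for 17 genes in astrocyte 1 and 5 in astrocyte 2, with 4 in microglia 1 and 17 in microglia 2. Within it the Slc6 family, sodium-coupled transporters that end signalling by GABA and glycine, had 22 positions in 5 genes. Slc6 sites numbered 10 in astrocyte 1 and 1 in astrocyte 2, with 0 in microglia 1 and 15 in microglia 2. In microglia 1 all carriers together had 23 sites.

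Slc6a11, the GABA transporter GAT3 of astrocytes, had 5 positions within 581 bases of chromosome 6 (plus strand, build mm39). Its levels were 13.9% and 19.05% in astrocyte 1, and 71.8%, 18.2%, 29.9% and 12% in microglia 2. The value of 71.8%, at 114224810, stood alone above 30%. Slc6a9, the glycine transporter GlyT1, had levels of 15.9%, 32% and 30.8% in astrocyte 1 and 51.2% in microglia 2. Its base at 117725912 of chromosome 4 was the one listed in both, at 32% in astrocyte 1 and 51.2% in microglia 2. Slc6a6, which carries taurine, was the only Slc6 gene in astrocyte 2, with 1 site at 41.7%.

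The Slc38 family of sodium-coupled neutral amino acid transporters had 20 positions in 7 genes. Slc38a3, which moves glutamine out of astrocytes, had 1 site at 25% in astrocyte 1 and 2 sites, at 18.6% and 75%, in microglia 2. Slc38a2 had sites at 50%, 100%, 87.1% and 80% in astrocyte 1 and at 66.7% and 62.5% in microglia 2. Slc38a1 had 1 site at 23.1% in astrocyte 1 and 3 sites with a median of 91.7% in microglia 2. None of these 3 genes had a position common to both libraries. Slc38a10 had a site in astrocyte 1 (80%), astrocyte 2 (100%) and microglia 2 (median 65% over 2).

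The Slc7 amino acid exchangers were divided between the libraries. Slc7a10, a carrier of serine and other small amino acids in astrocytes, had 2 sites in astrocyte 1, both at 30%. Slc7a11, the cystine and glutamate exchanger, had 1 site in astrocyte 1 at 41.2% and 1 in microglia 2 at 33.3%. Slc7a2, an importer of cationic amino acids, had 1 site at 25% in astrocyte 1 and 2 at a median of 40.4% in microglia 2. Slc7a8, the exchanger LAT2, had the other pattern, with 37.5%, 42.9% and 100% in astrocyte 2 and 71.4% in microglia 1, and no site in the remaining libraries. Slc7a5, LAT1 of the blood-brain barrier, had 1 site, in microglia 2 at 50%. Slc3a2, the subunit that LAT1 and LAT2 share, had 1 site in astrocyte 1 at 40.8% and 1 in microglia 1 at 100%, at different bases.

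Other amino acid carriers followed either pattern or crossed it. Slc1a4, a neutral amino acid exchanger, had 3 sites between 75% and 77.8% in astrocyte 1 and 2 in microglia 2, and its base at 20282594 of chromosome 11 stood at 77.8% in astrocyte 1 and 46.2% in microglia 2. Slc43a2, a carrier of large neutral amino acids, was listed in 3 libraries. Its base at 75463831 of chromosome 11 stood at 50% in astrocyte 1 and 83.3% in astrocyte 2, and another base stood at 29.2% in microglia 2. The vesicular glutamate transporters of neurons, Slc17a7 and Slc17a8, had 1 site each, in astrocyte 1, at 44.4% and 100%. The peptide transporters Slc15a2 and Slc15a3 had 1 site each, the first in microglia 2 at 55.6% and the second in microglia 1 at 80%.

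Carriers of lipids, organic ions, vitamins and urea numbered 14 genes with 45 positions. Slc27a1, a fatty acid transport protein, held 9 of these. Its levels in astrocyte 1 were 27.8%, 24.2%, 68.8%, 46.2%, 50%, 16.3% and 50%. In microglia 2 they were 16.2%, 22.2%, 14.3% and 19.2%, all below the median of 46.2% in astrocyte 1. The base at 72038641 of chromosome 8 stood at 68.8% in astrocyte 1 and 16.2% in microglia 2, the widest gap at any shared carrier position. The base at 72038821 stood at 50% in astrocyte 1 and 22.2% in microglia 2. Slc22a23, an orphan member of the organic ion family, had 7 positions, 3 in astrocyte 1 and 4 in microglia 2, with a median of 80% in each. Slc22a4, which carries ergothioneine, had 2 sites at a median of 83.3% in astrocyte 1 and 1 at 27.3% in microglia 2, and Slc22a17 had 2 at a median of 19.6% in astrocyte 1 and 1 at 25.9% in microglia 2.

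Slco1c1, a thyroid hormone transporter of astrocytes and brain vessels, had 2 sites at 29.4% in astrocyte 1 and 1 in microglia 2 at 22.7%, on a base that both listed. Slc14a1, the urea transporter, had 2 sites with a median of 83.5% in astrocyte 1 and 2 with a median of 72.1% in microglia 2. Slc44a1, a choline carrier of oligodendrocytes among other cells, had 3 sites at a median of 44.4% in astrocyte 1 and 1 at 50% in microglia 2. Slco2b1, an organic anion carrier and a marker of microglia in brain, stood apart from these. Its levels were 33.3% and 20% in astrocyte 2 and 28.6%, 60% and 100% in microglia 1, at 5 different bases of chromosome 7. No other library listed it. Slc44a2, another choline carrier, had 1 site at 60% in astrocyte 1, and its base at 21265994 of chromosome 9 stood at 84.6% in astrocyte 2 and 66.7% in microglia 2. Slc46a1, which carries folate, had 1 site, in microglia 2 at 60%.

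**Figure D3:**
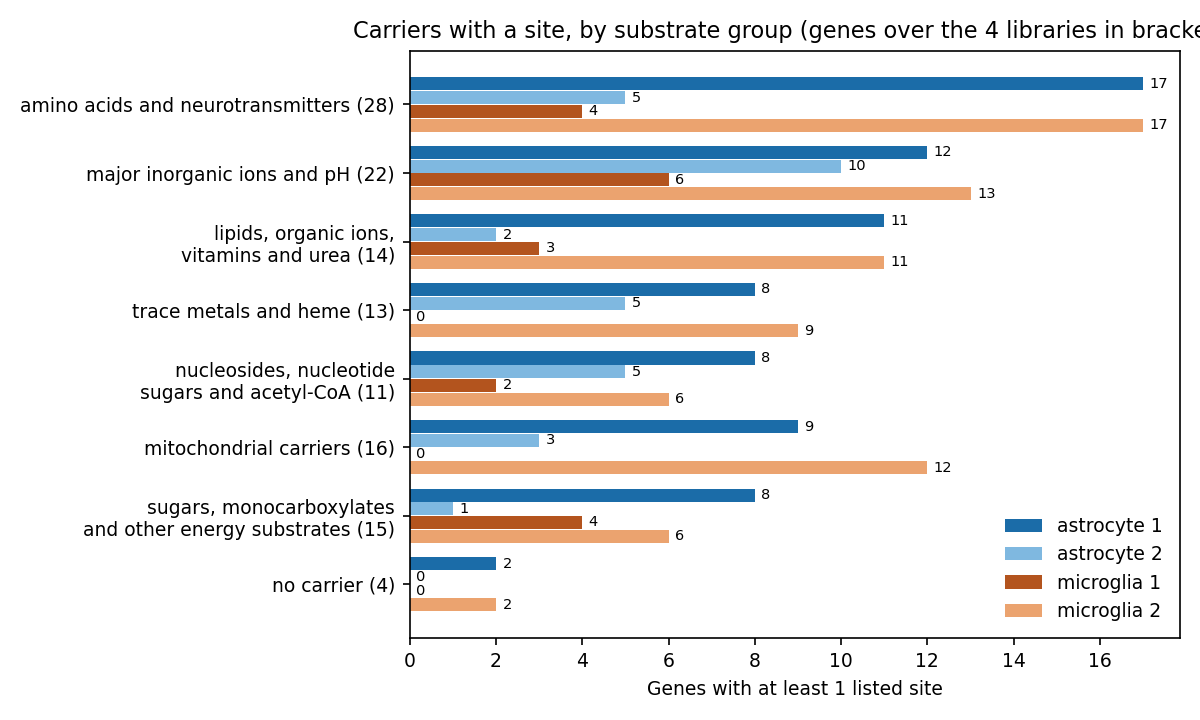
Number of genes with at least 1 listed site in each library, for carriers grouped by substrate, with the number of genes over the 4 libraries in brackets. Amino acid carriers lead in astrocyte 1 and microglia 2 with 17 genes each, while ion carriers lead in astrocyte 2 with 10 and in microglia 1 with 6.

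Carriers of major inorganic ions numbered 22 genes with 46 positions. A site was present for 12 in astrocyte 1 and 10 in astrocyte 2, with 6 in microglia 1 and 13 in microglia 2. Slc12a2, the sodium-potassium-chloride cotransporter NKCC1, had 7 positions on chromosome 18. Its levels were 17.6%, 31.2%, 92.9%, 87.5% and 27.6% in astrocyte 1, and 25.7% and 60% in microglia 2, with no base in common. Slc12a5, the neuronal potassium-chloride cotransporter, had 1 site, in astrocyte 1 at 100%.

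Slc8a1, a sodium-calcium exchanger, had sites in astrocyte 2 (89.5%, 100% and 30.8%), microglia 1 (36.4%) and microglia 2 (83.3% and 66.7%). The base at 81695322 of chromosome 17 stood at 89.5% in astrocyte 2 and 83.3% in microglia 2. Slc24a2, a calcium exchanger best known in neurons, had 3 sites at a median of 50% in astrocyte 1 and 1 at 35% in microglia 2. The magnesium transporter Slc41a1 had 2 sites at a median of 64.3% in astrocyte 1 and 3 at a median of 47.4% in microglia 2. Their common base, at 131758654 of chromosome 1, stood at 42.9% in astrocyte 1 and 47.4% in microglia 2. The phosphate importer Slc20a2 had 1 site at 37.5% in astrocyte 1 and 2 at a median of 56.3% in microglia 2. Of the 8 Slc9 sodium-proton exchangers listed, Slc9a8 and Slc9a9 had a site in astrocyte 2 alone, and Slc9a7 in microglia 2 alone.

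Carriers of trace metals and heme numbered 13 genes with 29 positions and had no site in microglia 1. That library listed 15.4% of all carriers and 17.0% of all named genes, and the absence was not tested. Slc40a1, which encodes the iron exporter ferroportin, had 5 positions, all in astrocyte 2, at 55.6%, 72.7%, 71.4%, 100% and 85.7%. It was the carrier with most sites in that library. Slc39a12, a zinc importer enriched in astrocytes, had 30.4% and 15.6% in astrocyte 1 and 28.9% in microglia 2. Slc30a5, a zinc transporter of the secretory pathway, had 3 sites, all in astrocyte 2, at a median of 100%. Slc30a9 and Slc31a2 each had 1 site in astrocyte 1, astrocyte 2 and microglia 2, at 3 different bases each. The manganese exporter Slc30a10 had 2 sites at a median of 90% in astrocyte 1 and 1 at 50% in microglia 2. Slc48a1, a heme transporter, was listed at 1 base, at 50% in astrocyte 1 and 35% in microglia 2. Slc11a1, a metal exporter of macrophage phagosomes, had 1 site, in microglia 2 at 100%.

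Mitochondrial carriers of the Slc25 family were the largest family, with 16 of 47 family members in the mouse gene set and 26 positions. Their sites numbered 9 in astrocyte 1 and 3 in astrocyte 2, with 0 in microglia 1 and 16 in microglia 2. All carriers together had 126, 47, 23 and 119 sites in this order. Slc25a4, an exchanger of ADP and ATP, had 1 site at 23.3% in astrocyte 1 and 3 sites, at 50%, 63.2% and 18.2%, in microglia 2. The base of Slc25a51, the NAD carrier, at 45398874 of chromosome 4 had a level of 50% in astrocyte 1 and of 50% in microglia 2. That of Slc25a11, the oxoglutarate carrier, at 70535443 of chromosome 11 stood at 57.1% in astrocyte 1 and 86.7% in microglia 2.

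Carriers of nucleosides, nucleotide sugars and acetyl-CoA numbered 11 genes with 28 positions. Slc29a3, a lysosomal nucleoside transporter, had 1 site in astrocyte 1, 4 in astrocyte 2 and 2 in microglia 1. Its base at 60551628 of chromosome 10 (minus strand) stood at 66.7% in astrocyte 1, 30.8% in astrocyte 2 and 31.8% in microglia 1. The astrocyte 2 and microglia 1 values lay within 2 points of each other. Slc35f6 had 3 sites in astrocyte 1 (median 80%), 1 in astrocyte 2 (88.9%) and 1 in microglia 2 (88.9%). Its base at 30815375 of chromosome 5 stood at 90.9% in astrocyte 1 and 88.9% in microglia 2. Slc35b1, which exchanges ATP and ADP across the endoplasmic reticulum, was listed at 1 base, at 40% in astrocyte 1 and 31.2% in astrocyte 2. Slc33a1, the acetyl-CoA carrier, had 1 site each in astrocyte 1, astrocyte 2 and microglia 2, between 80% and 100%. Slc35e4 had 3 sites, all in astrocyte 1, while Slc35a5, Slc35e2 and, in the metal group, Slc39a9 had 3 positions over 2 libraries.

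Carriers of sugars, monocarboxylates and other energy substrates numbered 15 genes with 25 positions. Slc16a1, the lactate carrier MCT1, had 50% and 42.9% in astrocyte 1 and 83.3%, 71.4% and 36.4% in microglia 2, with no common base. Slc5a3, which imports myo-inositol, had 3 sites at a median of 60% in astrocyte 1 and 2 at a median of 62.7% in microglia 2. Slc13a5, a citrate importer, had a base at 72133841 of chromosome 11 listed at 42.9% in astrocyte 1 and 75% in microglia 2. Slc2a5, the fructose carrier GLUT5 and a marker of microglia in brain, had 1 site, in microglia 1 at 100%. Slc37a2, a sugar phosphate carrier of macrophages, had 1 site at 60% in astrocyte 2 and 1 at 100% in microglia 1.

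By family, 40 families had a site. Astrocyte 1 and microglia 2 each listed 34, astrocyte 2 listed 22 and microglia 1 listed 17. The 7 families found in all libraries were Slc4, Slc7, Slc9, Slc12, Slc35, Slc38 and Slco. A further 9 families, Slc1, Slc5, Slc13, Slc14, Slc22, Slc24, Slc41, Slc48 and Slc49, were found in astrocyte 1 and microglia 2 and in no other library. Astrocyte 1 and microglia 2 also listed the most carrier sites, 126 and 119 of 315, and this pattern of families was not tested. The 4 families found in a single library were Slc40 in astrocyte 2, Slc50 in astrocyte 1, and Slc11 and Slc36 in microglia 2. Of 52 families in the mouse gene set, 12 had no listed site, the biggest being Slc10, the bile acid carriers, with 7 genes.

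The carriers were next set against lists of those known from each cell type. Of 19 carriers known in astrocytes, 14 had a site in astrocyte 1 and 1 in astrocyte 2, with 1 in microglia 1 and 15 in microglia 2. Of 14 known in microglia and macrophages, 2, 6, 6 and 3 had one, in the same order of libraries. The member of the first list found in astrocyte 2 and microglia 1 was Slc8a1. From the second list, astrocyte 2 and microglia 1 both held Slc29a3, Slc37a2, Slc7a8 and Slco2b1, with Slc40a1 and Slc43a2 further in astrocyte 2 and Slc15a3 and Slc2a5 in microglia 1. Slc29a3 and Slc43a2 were the members of the second list found in astrocyte 1, and Slc11a1, Slc43a2 and Slc46a1 those in microglia 2. The carriers known in astrocytes thus followed the astrocyte markers, with both replicate 2 libraries against their labels. The carriers known in microglia followed the microglia markers with a smaller contrast between libraries. These lists were chosen with earlier results of these data known, so they are not an independent check of the labels. Carriers known in neurons had a site in 6 of 13 genes of astrocyte 1, 1 of astrocyte 2, 1 of microglia 1 and 3 of microglia 2. Of the neuron markers, which hold no carrier, 3, 0, 1 and 0 of 15 had a site, and Rbfox3, Snap25 and Syt1 were among those with none. Oligodendrocyte markers had a site in 11, 0, 0 and 10 of 13 genes, and endothelial and mural markers in 2, 0, 0 and 3 of 12. Markers of border macrophages and blood myeloid cells had a site in 0, 1, 1 and 0 of 10 genes. The part of these cells in the carrier sites was not tested. Of 4 carriers known in oligodendrocytes, 2, 0, 0 and 2 had a site, and of 11 known in brain endothelium, 1, 0, 1 and 1.

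**Figure D4:**
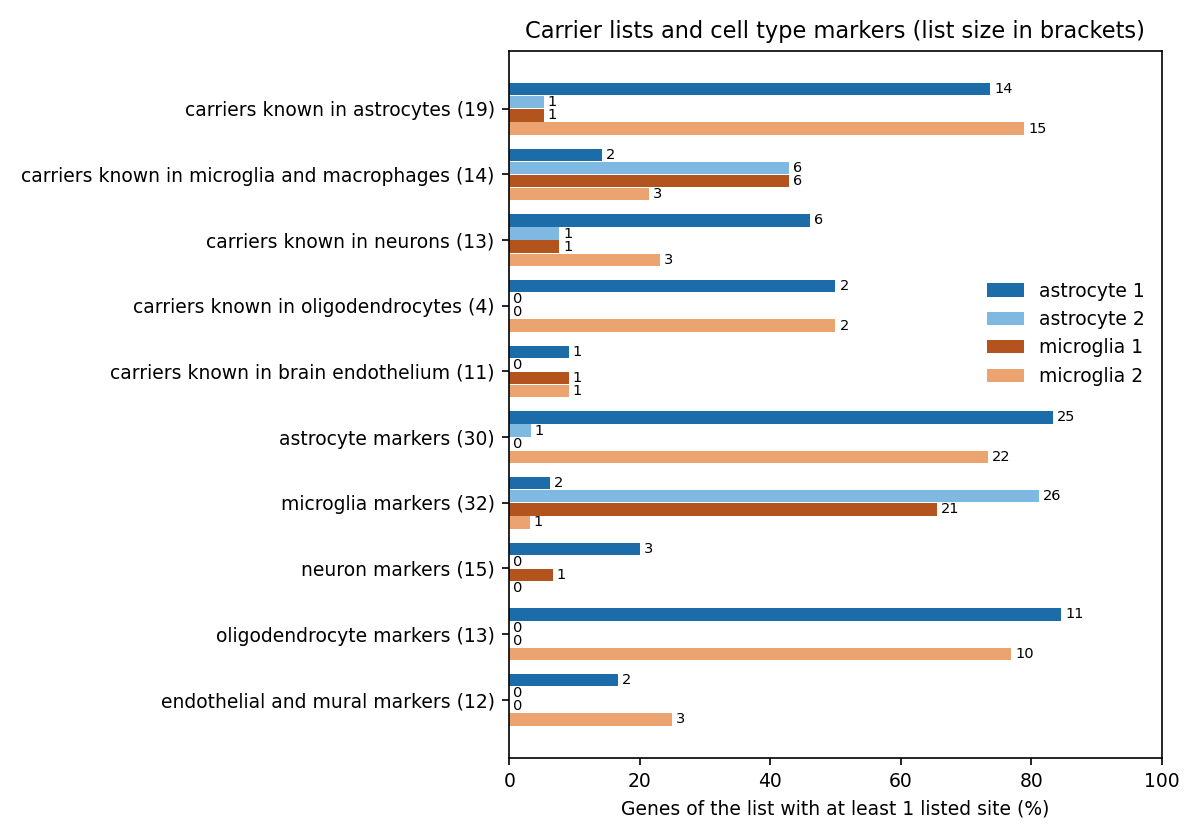
Percent of each fixed list with at least 1 listed site in each library, with the number of genes at the bar. Carriers known in astrocytes reach 14 and 15 genes in astrocyte 1 and microglia 2 and 1 gene in the other libraries, and the astrocyte markers below them have the same pattern.

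The median level was not the same on each list. In astrocyte 1 the 38 sites in carriers known in astrocytes had a median of 31.6%, while the 86 in carriers on neither glial list had 69.0%. In microglia 2 the 36 sites in carriers known in astrocytes had 29.4%, and the 80 on neither list had 62.5%. At 100% stood 1 of the 38 sites and 0 of the 36. In astrocyte 2 the 17 sites in carriers known in microglia had a median of 60% and the 27 on neither list had 80%. In microglia 1 these medians were 80% over 9 sites and 100% over 13. The remaining medians of the glial lists rest on 1 to 3 sites each and did not all lie lower. Carriers known in astrocytes had 89.5% over 3 sites in astrocyte 2, above its 80%, and 36.4% at 1 site in microglia 1. Carriers known in microglia had 58.3% over 2 sites in astrocyte 1 and 60% over 3 in microglia 2, close to its 62.5%. Carriers with 3 or more positions also had lower medians than carriers with 1 position in 3 of 4 libraries: 50% and 80% in astrocyte 1, 60% and 100% in microglia 1, and 50% and 60% in microglia 2. In astrocyte 2 the order was the opposite, at 80% and 52.7%. Other named genes had lower medians with 3 or more positions in 4 of 4 libraries. Sites of a gene lie on the same transcripts and are not independent, and none of these differences was tested.

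A total of 31 carrier positions in 28 genes were listed in 2 or more libraries, 11.2% of 277 positions, against 9.72% of positions in all named genes. Of these, 17 were common to astrocyte 1 and microglia 2 and to no other library. Their level was higher in astrocyte 1 at 9, lower at 7 and equal at 1, and at 8 of 17 the values lay within 10 points. At the level of genes, astrocyte 1 and microglia 2 shared 45 carriers, 60% of the carriers of astrocyte 1 and 59.2% of those of microglia 2, against 44.0% and 53.1% for all named genes. Astrocyte 2 and microglia 1 shared 9 carriers, 29.0% of those of astrocyte 2 and 47.4% of those of microglia 1, against 18.9% and 34.6% for all named genes. The libraries labelled astrocyte shared 16, 21.3% of the carriers of astrocyte 1 and 51.6% of those of astrocyte 2, against 21.8% and 40.1%. The libraries labelled microglia shared 4, 21.1% of the carriers of microglia 1 and 5.26% of those of microglia 2, against 34.6% and 12.5%. Astrocyte 1 and microglia 1 shared 8, 10.7% and 42.1% of their carriers, against 14.1% and 47.1%, and astrocyte 2 and microglia 2 shared 13, 41.9% and 17.1%, against 34.6% and 22.8%. These differences between carriers and all named genes were not tested.

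Some shared positions stood at 100% wherever they were listed. These were 6 positions in 5 genes: both bases of Slc9b1, and 1 each of Slc9b2, Slc9c1, Slc26a4 and Slc27a3. Of the 6 positions, 5 read AAC, and that of Slc27a3 read GAC. Slc9b1, a sodium-proton antiporter best known from sperm, was listed at 135085732 of chromosome 3 in all 4 libraries. The 3-mers of both Slc9b1 bases held lower-case letters, which mark soft-masked repeat sequence by convention. Those of the other genes did not. Slc26a4, the anion exchanger pendrin, and Slc27a3 were shared by astrocyte 1 and microglia 1. The base of Slc46a3 at 147831582 of chromosome 5 stood at 95.7% in astrocyte 1 and 100% in microglia 1 and microglia 2.

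**Figure D5:**
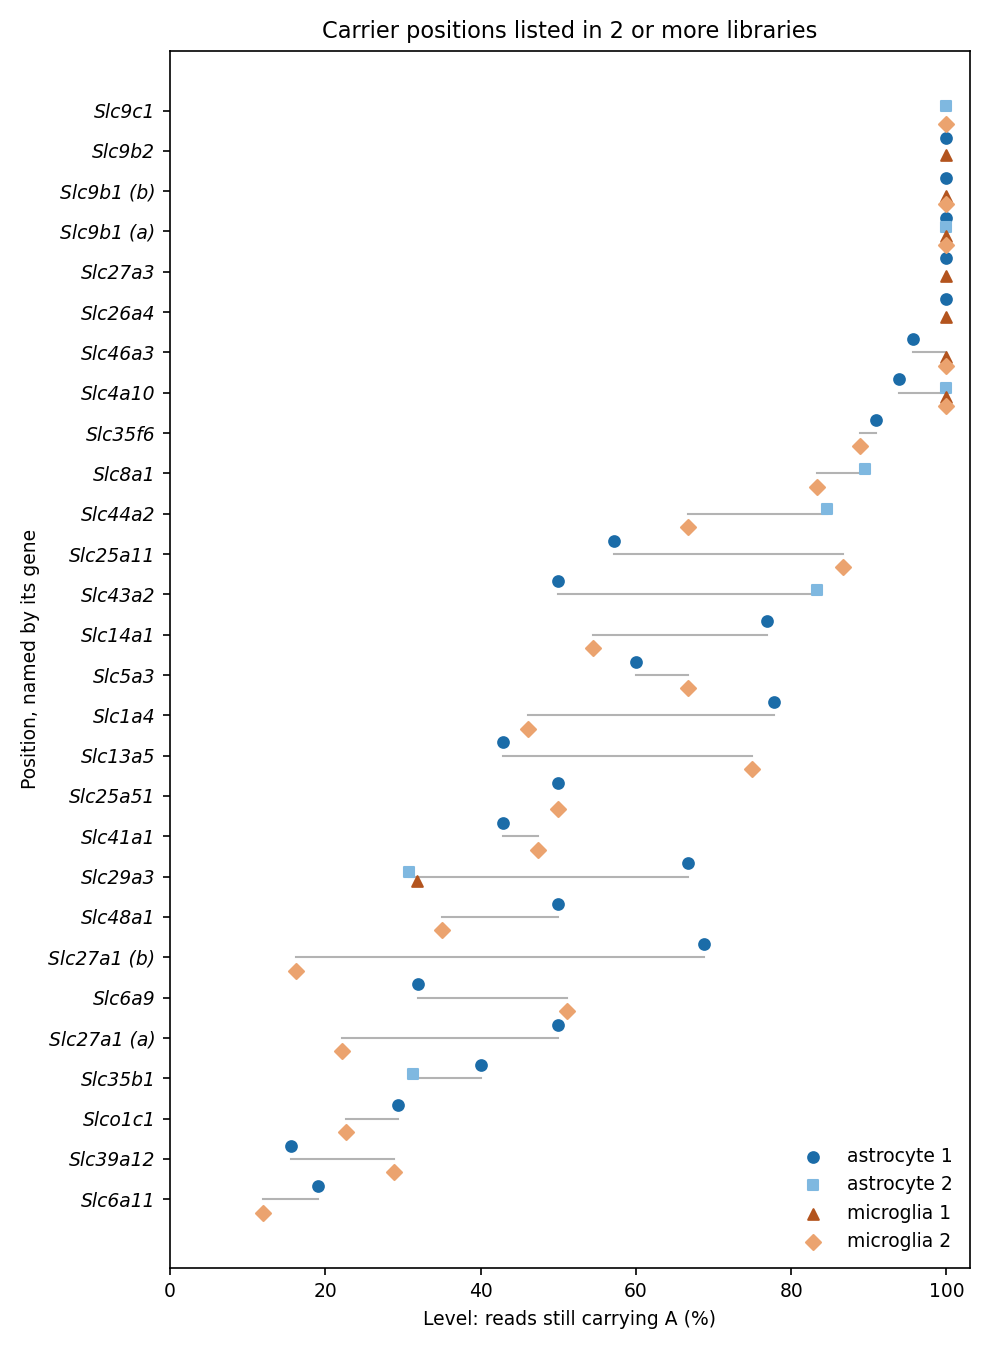
Level at 28 of the 31 carrier positions listed in 2 or more libraries, 1 row per position named by its gene (a and b where a gene has 2, with the lower mean as a except in Slc9b1, where both stand at 100%). A grey line joins the lowest and highest level. The positions of Slc6a11 and Slc39a12 lie at the low end, and the top 6 rows stand at 100%.

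Compared as labelled, 5 carriers had a site in both libraries labelled astrocyte and in neither labelled microglia, among them Slc20a1, Slc25a23, Slc35b1 and Slc39a9. This was 4.07% of carriers, against 4.09% of all named genes, and so no more than in the background. In the other direction 0 carriers were found, against 0.869% of named genes. Slc35b1 had the same base listed in both libraries.

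The level at a given base could be tested at very few carriers. Only the bases of Slc4a10 and Slc9b1 were listed in all 4 libraries, and Slc9b1 stood at 100% in each and had no spread to test. Slc4a10, a sodium-bicarbonate transporter of neurons, had its base at 61877003 of chromosome 2 at 93.9% in astrocyte 1 and 100% in astrocyte 2, against 100% in microglia 1 and 100% in microglia 2. The difference was -1.34 ± 1.13 on the log2 odds scale (standard error; limma, Benjamini-Hochberg adjusted p = 0.678). In that fit limma called 0 of 354 sites inside and outside named genes, 0%, with 16 at an unadjusted p under 0.05. A fit of sites in named genes only tested 48 sites and called 0. With 2 labels in doubt, these tests do not bear on the cell types.

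Transporters outside the Slc and Slco symbols had sites too. Of 43 carriers under other names, such as Npc1 and the Mfsd and Sfxn genes, 13 had a site in any library, as did 16 of 28 ABC transporters and 20 of 32 P-type and vacuolar ATPase pumps. In single libraries, ABC transporters had a site in 10 genes of astrocyte 1, 8 of astrocyte 2, 3 of microglia 1 and 7 of microglia 2. The pumps had one in 13, 8, 1 and 12 genes. Of 16 partners and regulators of carriers, which include the Wnk kinases that control cation-chloride cotransporters, 10, 5, 2 and 6 had a site. These lists were drawn up by name and were not tested against the carriers.

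Neighbouring sites were common in carriers. Of the 277 positions, 54 had another position of the same gene within 100 bases, which is 19.5%, against 14.3% in other named genes. Within single libraries the share was 11.1% in astrocyte 1 and 17.0% in astrocyte 2, with 0% in microglia 1 and 16.8% in microglia 2, against 9.76%, 10.3%, 4.89% and 9.01% in other named genes. The order thus differed in microglia 1, where 23 carrier sites were listed. Carriers also had more positions per gene, 2.25 against 1.91 in other named genes, and the difference in neighbours was not tested. The closest pair was in Slc35a5, at 12 bases, and Slc38a3 had 2 positions 13 bases apart.

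The 56 genes under the symbol rule that the naming rule did not choose held 73 positions, each listed in 1 library, with levels from 16.7% to 100% and a median of 62.5%. Of these, 23 were in astrocyte 1 and 10 in astrocyte 2, with 5 in microglia 1 and 35 in microglia 2.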

How the data were processed

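Each library has 1 table deposited by the authors, with 7 columns and no header. The level in it is a fraction, deposited without coverage or read counts, so depth and counting error of a level are unknown. The design text names GLORI-tools for site calling. The submitters' processing notes list STAR and mm39. No source used here gives the calling thresholds. The labels enter polyA RNA as the molecule, while their protocol describes total RNA. Positions are 1-based. No genome of that build was used. Gene symbols were matched to a RefSeq table of GRCm38.p6 for names only, and 123 of 123 matched.

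Members and lists were chosen with earlier results of these data known. A carrier is named if it has 3 or more positions, a position in 2 or more libraries, or a place on a list of carriers known in 1 cell type. Slc6a6, Slc20a1, Slc25a23, Slc9a7, Slc9a8 and Slc9a9 were named after their values were seen. Sites listed in all 4 libraries were fitted with limma 3.58.1 (R 4.3.3) on log2 odds of the level, limited to 0.01 to 0.99, without a replicate block. Sites tied within both labels were left out. The plan for read counts did not apply. The fit was also run on simulated normal values, which are not limited to a range as the real levels are. No conclusion is drawn from that run. Permutation tests enumerate all arrangements of the libraries. Exact binomial intervals are Clopper-Pearson (SciPy 1.17.1). A few carriers enter all counts and fits, but their own values are not reported here.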

Additional observations from a re-analysis of the deposited data

How the results depend on the processing

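The difference in carrier share between labels was -0.34 points and kept its sign at a minimum level of 20%, without the 4 symbols that encode no carrier, over genes and over all listed sites. It turned to 0.0216 points over sites below 100%, to 0.47 in the replicate 1 libraries alone (added after seeing the data), and ranged from -0.83 without microglia replicate 1 to 0.16 without microglia replicate 2; the cause was not tested. With the replicate number as a replicate block it was -0.34 (exact sign-flip p = 1). The numbers do not pair the libraries by any label, and deviations of same-numbered libraries correlated at -0.07 over 354 sites. These deviations are taken within a label, and 2 labels are in doubt, so the correlation cannot show whether libraries are paired. The mean over libraries of the carrier minus other-gene level stayed below 0 in each setting, from -4.58 points (1 value per gene) to -0.11 (below 100%). Single libraries did not all share that sign. Below 100%, the only negative value was that of astrocyte 1, at -4.545 points, and the largest positive value was 2.857 (astrocyte 2). With mean levels in place of medians, microglia 1 stood at 3.02 points and all other libraries below 0. limma called 0 sites in each of its 9 alternatives, with 2 to 17 at an unadjusted p under 0.05. The Slc4a10 estimate was -0.15 with levels limited to 0.05 to 0.95, and could not be made without astrocyte replicate 1 or without astrocyte replicate 2. No group has enough libraries for a check of single outlying values.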
